A study of Mus musculus with 6 samples.

Results

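Genes of the Fox, Sox, Pax, Six2 and Lhx families encode transcription factors that are known for placing cells within the embryo and for keeping fibroblasts, muscle, cartilage and nerve cells distinct. Fox proteins bind DNA through a forkhead domain and Sox proteins through an HMG box. Pax proteins carry a paired domain, Six2 and its relatives a homeodomain with a further conserved domain, and Lhx proteins a homeodomain with LIM domains that contact other proteins. In fibroblasts they are known as part of a record of the position from which the cell was taken, so that lines of different origin can differ in them. The members were all array probes, other than controls, whose gene name in the scanner files is that of a Fox, Sox, Pax or Lhx gene or of 1 of the 6 genes of the Six2 family. The name patterns took 86 genes of 34797 gene names, measured by 130 probes of 55681. Of the 86 genes, 44 are Fox, 19 are Sox, 9 are Pax, 6 are of the Six2 family and 8 are Lhx genes.

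Total RNA of immortalized mouse embryonic fibroblasts (MEF) was hybridized to 1-colour Agilent arrays, with 2 independent arrays in each of 3 groups. WT MEF were of strain background W4, TIA1 KO MEF were BALB/c and lacked TIA1, and TIAR KO MEF were C57BL/6 and lacked TIAR, whose gene is Tial1. TIA1 and TIAR are related RNA-binding proteins that act in splicing and translation. Each group is a cell line on its own background, so that genotype, strain and line cannot be told apart, and the place in the embryo that each line came from is not given in the sources used here. All arrays were on 1 slide, with both TIA1 KO arrays in another row than the WT and TIAR KO arrays. The row and the loss of TIA1 cannot be told apart. Raw intensities had medians of 151.8 and 140.4 for WT, 458.1 and 217.6 for TIA1 KO and 136.2 and 119.5 for TIAR KO MEF. Their negative control spots had medians of 112 and 102.7, 195.7 and 118.9, and 96.74 and 88.55. The TIA1 KO arrays were thus the brightest in background as well as in signal, and had the fewest probes well above background, 16000 and 19920, against 23531 to 26254 on the other 4.

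Values below are log2 normalized intensities, and a difference is a log2 difference between group means with its standard error (SE). A probe was called when the limma adjusted p was under 0.05 and the fold above 2, with p-values adjusted over all 55681 probes. Where a probe was not rated above background by the scanner software on any array of a group, its level there is uncertain, and its fold is given as "at least". That fold sets the mean of the brighter group against a dim mean in which each array takes the higher of its lowest signal rated above background and the probe's own value. Where the probe's own values are the higher, it equals the measured fold. The lowest signal is not a detection limit for every probe. A dimmer Sox11 probe read 9.41 on TIA1 KO array 1 without being rated above background, where the lowest signal was 8.03. An "at least" fold is thus not a guaranteed minimum. The level of 1 probe cannot be set against that of another, since probes differ in their own brightness. For genes with several probes, the brightest is described where no other is named, and probes of the same gene can differ. In RNA of a whole culture, fewer cells with a transcript and less of it per cell cannot be told apart.

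The targeted genes were read first. The brightest Tia1 probe stood at 10.72 and 8.54 in WT cells, at 7.87 and 8.44 in TIA1 KO cells, and at 9.56 and 9.58 in TIAR KO cells. It was lower by 1.47 in the mean of TIA1 KO MEF, with an SE of 0.787 and an adjusted p of 0.288 by limma, and so was not called. Of the other 2 Tia1 probes, 1 differed by -1.62 in TIA1 KO MEF, and the other was below background in WT MEF and at least 1.82-fold higher in TIA1 KO MEF, neither of them called. The Tia1 probes thus disagree in direction. The brightest Tial1 probe has a value on WT array 2 only, since its spot on WT array 1 was an outlier and was left out. It read 13.22 there and 9.57 and 11.60 in TIAR KO cells, and with 1 WT value no test is given for it. A dimmer Tial1 probe on chromosome 7 (mm9, 135583306 to 135583365) fell by 1.58 in TIAR KO MEF, with an SE of 0.259 and an adjusted p of 0.0254. Which part of either gene was deleted is not given in the sources used here. The brightest Gapdh probe differed from WT by -0.04 without TIA1 and by 0.09 without TIAR, and the sign of both differences changed under other settings.

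A probe was above background on both arrays for 36 of the 86 genes in the WT line, 29 in the TIA1 KO line and 42 in the TIAR KO line, that is 41.9%, 33.7% and 48.8% of the members. Over all 34797 gene names the shares were 48.4%, 33.1% and 49.9%. By family, Fox genes, at 22, 19 and 25 of 44, and Six2 family genes, at 3, 4 and 3 of 6, passed in the 3 lines, as did 1 of 9 Pax genes in each and 2, 2 and 3 of 8 Lhx genes. Among Sox genes 8 of 19 passed in WT cells, 3 in TIA1 KO cells and 10 in TIAR KO cells. The lower TIA1 KO shares moved with the higher background of those arrays, whose part in them was not tested.

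**Figure D1:**
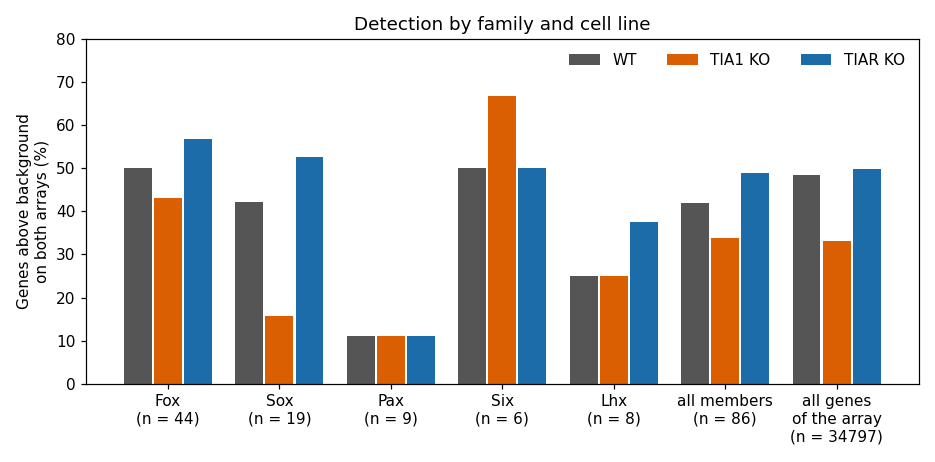
Percent of genes (vertical axis) with a probe well above background on both arrays of a group, by family and for all gene names on the array, with 1 bar for each cell line and the number of genes under each family. Sox genes reach 42.1% for WT, 15.8% for TIA1 KO and 52.6% for TIAR KO cells. Pax genes are at 11.1% in all 3, by Pax3 in WT and TIAR KO cells and by Pax8 in TIA1 KO cells.

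Of the 86 genes, 22 were above background on all 6 arrays, 25 on none, and 39 on 1 to 5 arrays. The genes seen on all arrays included the mesenchymal factors Foxc1, Foxc2, Foxf1a and Foxf2, the cell cycle factor Foxm1, the insulin-signal factor Foxo1, the head and muscle factor Six4, and Sox4. Those seen on none included the eye factors Pax6, Six3 and Six6, the muscle factor Pax7, the B cell factor Pax5, the regulatory T cell factor Foxp3 and the blood vessel factors Sox7 and Sox18.

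Foxl2 and Sox5 each had 1 bright probe and low values from the other probes of the same gene. Probes differ in their own brightness, so this gap in level alone cannot be read as a disagreement. The 2 Foxl2 probes lie next to each other on chromosome 9 (mm9, 98856846 to 98856905 and 98856894 to 98856950) and share 12 bases, in capitals. They are shown because the second read between 14.71 and 15.47 on the 6 arrays and the first between 6.84 and 7.73.
Foxl2 dim probe: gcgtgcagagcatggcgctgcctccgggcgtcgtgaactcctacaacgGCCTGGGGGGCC
Foxl2 bright probe: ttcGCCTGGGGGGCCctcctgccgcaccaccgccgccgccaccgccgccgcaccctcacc
The bright probe holds 81.7% G or C and 56.7% C, and only 0.018% of all probes hold as much C. The brightest Sox5 probe, with 27 of its bases placed on the genome, read 13.94 to 14.58, while the other 2 Sox5 probes were above background on no array. All 60 of its bases are A or G, as in 0.0413% of the probes on the array. No call was made for Foxl2 or Sox5 in any comparison. The bright values of both genes thus rest on probes of rare base composition, whose part in these levels was not tested.

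**Figure D2:**
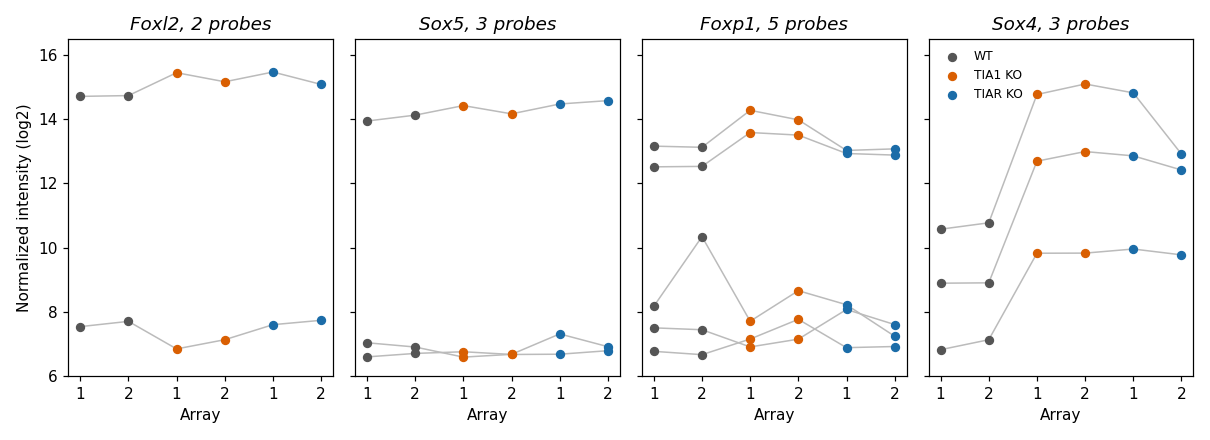
Log2 normalized intensity (vertical axis) of every probe of Foxl2, Sox5, Foxp1 and Sox4 on the 6 arrays (horizontal axis, arrays 1 and 2 of each group), with grey lines joining the values of 1 probe. The Foxl2 probes lie near 15.1 and 7.42 on average, whereas all 3 Sox4 probes are higher in the knockouts than in WT MEF.

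TIA1 KO MEF were compared with WT MEF to see which of these factors differ in the line without TIA1. Of the 130 member probes 11 were called higher, or 8.46%, against a background of 2.18% of all probes, and 2 were called lower, or 1.54%, against 1.36%. The 11 probes belong to 9 genes, among them Foxa2, Foxc2, Foxf2, Foxl1, Foxr2, Foxs1, Pax8 and Sox4, and the lower probes to Foxf1a and Sox12. The median difference was 0.0774 over the members and -0.0922 over all probes. At an unadjusted p under 0.05 there were 48 member probes. None of the 13 calls, nor any other call on the array, passed when WT array 1 or 2 was left out, with 27 and 25 member probes at an unadjusted p under 0.05. This holds for each TIA1 KO call given below. The arrays left out one at a time on the other side gave 18 calls without TIA1 KO array 1, where 5.52% of all probes were called, and 32 without TIA1 KO array 2, where 19.3% were. With a common array median in place of loess and quantile normalization, 16 member probes were called higher and 16 lower, against 11 and 2, while the share of all probes called went from 3.54% to 28.4%.

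TIAR KO MEF were compared with WT MEF in the same way. Here 13 member probes were called higher, or 10%, against a background of 3.39%, and 2 were called lower, or 1.54%, against 2.37%. The higher probes belong to Foxa2, Foxc2, Foxf2, Foxo6, Foxs1, Lhx3, Sox11 and Sox4, and 1 of the lower to Lhx2. The median difference was 0.0993 over the members and -0.0235 over all probes. At an unadjusted p under 0.05 there were 34 member probes. The count of 15 called probes became 10 to 16 under the alternatives tried, and stayed within this range with each array left out in turn. The count of 10 was with 1 probe per gene, where 86 probes were tested. Of all probes tested, 5.76% were called as reported, 1.82% with a treat test of a fold above 2 and 13.2% with a filter on dim probes. Foxa2, Foxo6, Foxs1, Sox11, Foxf2 and Lhx2 were called under all 16 alternatives by their brightest probe.

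**Figure D3:**
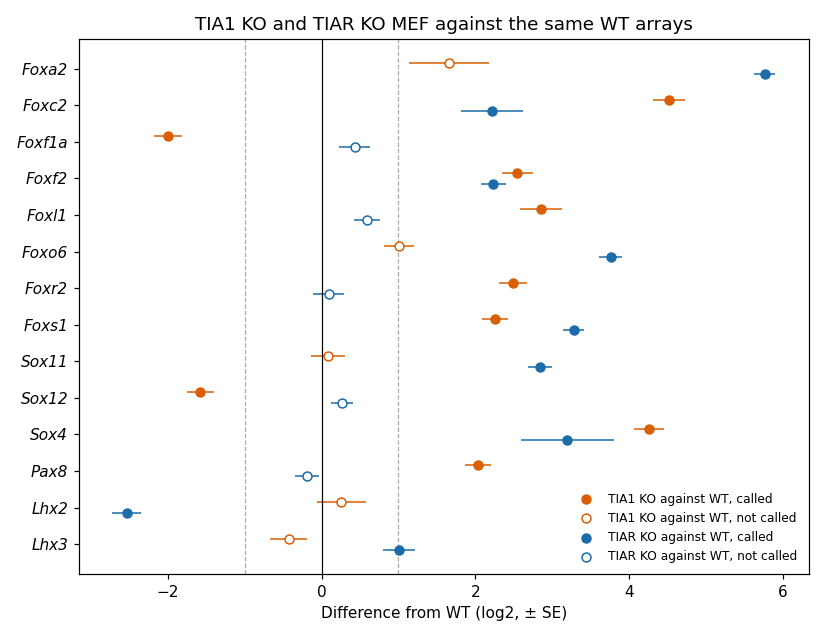
Difference from WT MEF on the log2 scale with its SE (horizontal axis) for the brightest probe of 14 member genes called in any comparison, in TIA1 KO MEF (orange) and TIAR KO MEF (blue), both against the same WT arrays. Filled points were called and open points were not, and dashed lines mark a fold of 2. Where 1 of the groups was below background (WT for Foxa2, Foxl1, Foxr2 and Lhx3, TIA1 KO for Foxa2, Lhx3 and Sox12, TIAR KO for Foxr2 and Pax8), the point is the measured difference. Sox4, Foxc2, Foxf2 and Foxs1 are filled to the right of 0 in both knockouts, Foxl1 only in TIA1 KO MEF, and Foxa2 only in TIAR KO MEF by this probe.

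Both comparisons use the same WT arrays, so a low WT value enters both. With this shared control, 7 probes of 5 genes, Foxa2, Foxc2, Foxf2, Foxs1 and Sox4, were called higher in both and no member was called lower in both. The 7 probes are 5.38% of the member probes, and of all probes 0.961% were called higher in both and 0.598% lower in both. Sox4, a factor of progenitor cells, heart and nervous system, was measured by 3 probes on chromosome 13. The brightest (mm9, 29040826 to 29040885) read 10.57 and 10.77 in WT cells, 14.77 and 15.09 in TIA1 KO cells, and 14.82 and 12.91 in TIAR KO cells. Both WT values lay below all 4 knockout values. The differences were 4.26 (SE 0.197, adjusted p = 0.00576) and 3.19 (SE 0.605, adjusted p = 0.0395). The other 2 Sox4 probes differed by 3.94 and 2.85 without TIA1 and by 3.74 and 2.89 without TIAR, all called. The call of the brightest probe in TIAR KO MEF, whose arrays had an SD of 1.35, did not pass with a common array median. It also did not pass in a treat test of a fold above 2, or without WT array 1 or 2, where the differences were 3.1 and 3.29.

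Foxf2, a factor of palate, gut wall and pericytes, read 7.62 and 7.72 in WT cells, 10.02 and 10.41 in TIA1 KO cells, and 9.78 and 10.03 in TIAR KO cells. The WT arrays stood apart below the others, and the 2 knockouts overlapped each other. It rose by 2.54 (SE 0.202, adjusted p = 0.0161) and by 2.24 (SE 0.159, adjusted p = 0.00173). Foxc2, which is known from lymphatic vessels, kidney and the somites, read 7.68 and 7.96, then 12.17 and 12.51, then 9.43 and 10.64. Its order was WT, TIAR KO and TIA1 KO MEF with no overlap, and it rose by 4.52 (SE 0.211) and 2.21 (SE 0.406), with adjusted p of 0.00582 and 0.036. Between the knockouts Foxc2 differed by -2.30 in TIAR KO against TIA1 KO MEF (SE 0.455, adjusted p = 0.0926 by limma) and was not called. The TIAR KO call for Foxc2 did not pass without WT array 1 or 2, with adjusted p of 0.119 and 0.0839. Foxs1, a factor of neural crest and perivascular cells, read 8.46 and 8.44 in WT cells, 10.57 and 10.84 in TIA1 KO cells, and 11.76 and 11.69 in TIAR KO cells. It rose by 2.26 (SE 0.172, adjusted p = 0.015) and by 3.28 (SE 0.139, adjusted p = 0.000402). With a common array median the Foxs1 difference in TIA1 KO MEF was 1.10 and was not called (adjusted p = 0.0711).

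Foxa2, a factor of endoderm, liver and floor plate, was below background in WT MEF by both of its probes. The brightest read 6.50 and 6.46 in WT cells, 8.86 and 7.41 in TIA1 KO cells, and 12.24 on both TIAR KO arrays. It was at least 40.9-fold higher in TIAR KO than in WT MEF (adjusted p = 0.000176) and was not called in TIA1 KO MEF, where it was below background on both arrays. The other probe read 6.47 and 6.33, then 9.79 and 9.11, then 9.47 and 9.89, and was at least 5.9-fold and at least 6.92-fold higher in the knockouts. The probes thus differ on TIA1 KO MEF, which 1 of them rated above background and the other did not.

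The RefSeq promoter table of build GRCm38.p6 holds 1 start each for Foxf2 and Sox4 among the 5 genes called higher in both knockouts. For that reason their 250 bases before the start are printed, 5′ to 3′ on the strand of the gene, with matches to 4 short motifs in capitals. The part of these motifs in the differences was not tested. The motifs, searched on both strands, were TATAAA (the TATA box), GTAAACA (bound by Fox proteins), ACAAT (bound by Sox proteins) and CCAAT (bound by NF-Y). A Sox motif can share bases with a neighbouring NF-Y motif.
Foxf2, chr13:31625566-31625815, plus strand: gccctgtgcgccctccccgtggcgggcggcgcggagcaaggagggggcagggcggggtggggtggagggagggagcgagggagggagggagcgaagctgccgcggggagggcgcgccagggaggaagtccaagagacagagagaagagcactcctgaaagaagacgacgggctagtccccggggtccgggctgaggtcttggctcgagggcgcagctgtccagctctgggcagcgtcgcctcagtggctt
Sox4, chr13:28953700-28953949, minus strand: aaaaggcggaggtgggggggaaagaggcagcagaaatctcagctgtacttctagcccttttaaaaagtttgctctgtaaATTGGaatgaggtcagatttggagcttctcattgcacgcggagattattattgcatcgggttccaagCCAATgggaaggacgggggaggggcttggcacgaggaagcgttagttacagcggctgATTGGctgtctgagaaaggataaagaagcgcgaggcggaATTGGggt
The Sox4 window holds 4 CCAAT matches, 3 of them read on the other strand as ATTGG, and the Foxf2 window holds none of the 4 motifs. CCAAT was found in 33.8% of all 32851 promoters and in 43.6% of the 78 promoters of 60 member genes. ACAAT was found in 27.7% and 16.7%, TATAAA in 12.4% and 6.41%, and GTAAACA in 3.17% and 2.56%. The Foxf2 window is 71.6% G or C with 21 CG pairs, and the Sox4 window is 50.8% with 11. The median was 6 CG pairs over all promoters and 15 over the member promoters.

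**Figure D4:**
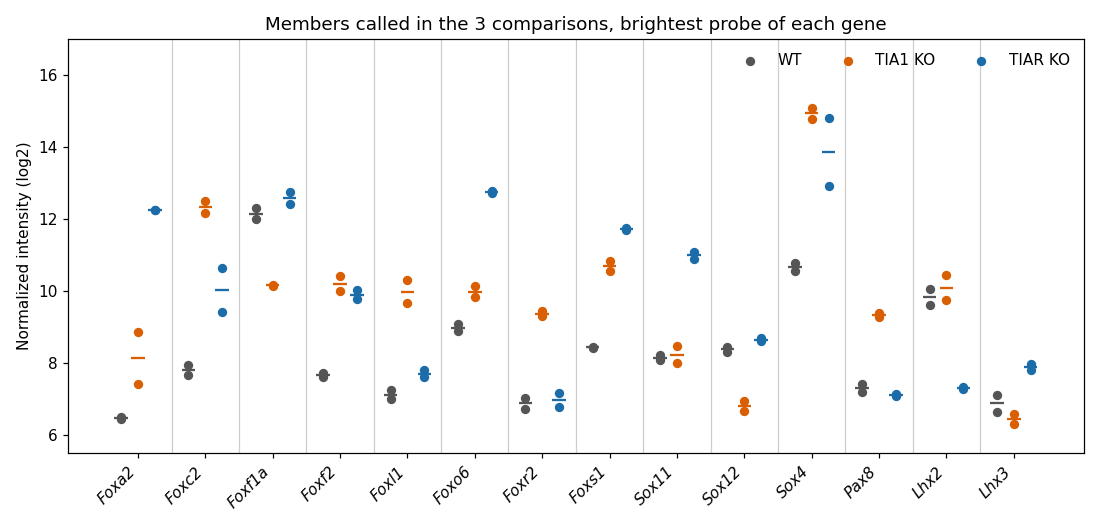
Log2 normalized intensity (vertical axis) of the brightest probe of 14 member genes called in any of the 3 comparisons, with 1 point for each array, 2 in each group, and a bar at the group mean. The WT points of Sox4, Foxf2, Foxc2 and Foxs1 lie below both knockouts, and the TIAR KO points of Lhx2 lie below the other 4.

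Foxl1, Foxr2 and Pax8 were called higher in TIA1 KO MEF by probes that were low in the other lines. Foxl1, a factor of the gut mesenchyme, read 7.25 and 7.0, then 10.30 and 9.66, then 7.61 and 7.81. It was at least 7.25-fold higher in TIA1 KO than in WT MEF (adjusted p = 0.0233), a call that did not pass in the authors' log2 table (adjusted p = 0.0645) or without loess (0.0572). Foxr2, on the X chromosome, read 7.04 and 6.74, then 9.32 and 9.44, then 6.80 and 7.17, and was at least 5.33-fold above WT MEF (adjusted p = 0.014). Pax8, a thyroid and kidney factor, read 7.42 and 7.20, then 9.40 and 9.29, then 7.10 and 7.15, a rise of 2.04 (SE 0.167, adjusted p = 0.0172, or 0.0511 with the replicate number as a block), with 1 WT array above background.

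Genes below WT MEF were fewer. Foxf1a, now named Foxf1, a factor of the gut and lung mesenchyme, read 12 and 12.30 in WT cells, 10.15 and 10.17 in TIA1 KO cells, and 12.76 and 12.41 in TIAR KO cells. It fell by 1.99 in TIA1 KO MEF (SE 0.179, adjusted p = 0.0205), while a dimmer Foxf1a probe differed by 0.31 and was not called. The Foxf1a call did not pass in the authors' log2 table (adjusted p = 0.0585) or with the replicate number as a block (0.0571). Sox12, a factor related to Sox4 and Sox11, read 8.31 and 8.46, then 6.68 and 6.94, then 8.69 and 8.60. In TIA1 KO cells it was below WT MEF by at least 1.86-fold (adjusted p = 0.0332), which did not pass with the block (0.0706) or with an intensity trend (0.0642).

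Lhx2, a factor of the eye, forebrain and limb bud, read 9.63 and 10.06 in WT cells, 9.75 and 10.45 in TIA1 KO cells, and 7.30 and 7.33 in TIAR KO cells. Its TIAR KO values were the lowest, without overlap, and it fell by 2.53 (SE 0.191, adjusted p = 0.00209). Only 1 TIAR KO array was above background for Lhx2.

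Foxo6, the member of the FoxO group known from the brain, rose in TIAR KO MEF by both probes. The brightest read 8.89 and 9.08 in WT cells, 9.83 and 10.15 in TIA1 KO cells, and 12.72 and 12.78 in TIAR KO cells. It rose by 3.76 (SE 0.15, adjusted p = 0.000367), and the second probe was at least 3.94-fold higher. Sox11, a factor of neural and mesenchymal progenitors, read 8.09 and 8.22, then 8.01 and 8.47, then 11.09 and 10.90. It rose by 2.84 in TIAR KO MEF (SE 0.155, adjusted p = 0.00076), and in TIA1 KO MEF, where only 1 array was above background, it stood at a difference of 0.09. A dimmer Sox11 probe rose by 1.97 in TIAR KO MEF and was below background in TIA1 KO MEF. Lhx3, a factor of the pituitary and motor neurons, was at least 1.67-fold higher in TIAR KO MEF (adjusted p = 0.049), a call that did not pass in 8 of 16 alternatives, among them without WT array 1 (adjusted p = 0.132) or TIAR KO array 1 or 2 (0.144 and 0.193).

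The knockouts were then set against each other, a comparison that uses no WT array. Of the member probes 7 were called higher in TIAR KO MEF, or 5.38%, against a background of 1.72%, and 6 lower, or 4.62%, against 1.63%. At an unadjusted p under 0.05 there were 44. With the replicate number as a block none of these 13 calls passed in limma, nor any other call on the array. In that fit 39 member probes were at an unadjusted p under 0.05. The called probes above background in both knockouts included those of Lhx2, Foxo6, Sox11, Foxf1a and Foxl1, with Lhx2 on 1 TIAR KO and Sox11 on 1 TIA1 KO array. The difference was -2.79 for Lhx2, 2.76 for Foxo6, 2.76 for Sox11, 2.42 for Foxf1a and -2.27 for Foxl1. The calls of Lhx2 and Foxo6 did not pass in the authors' log2 table or without loess. The brightest Foxa2 probe was at least 17.2-fold higher in TIAR KO MEF, Sox12 at least 2.24-fold and Lhx3 at least 1.5-fold, each with no TIA1 KO array above background. In the authors' log2 table the Foxa2 call did not pass. Foxr2 and Pax8 were above background on no TIAR KO array, and were at least 5.19-fold and at least 4.58-fold higher in TIA1 KO MEF. No probe on the array, member or not, was called in this comparison when either TIAR KO array was left out. Without TIA1 KO array 2 more member probes were called, as were more of all probes. Scaling to a common array median gave 19 higher and 9 lower, and processed intensities scaled to the 75th percentile gave 1 and 7, against 7 and 6. The share of all probes called was 14.9% and 2.71% under these settings, against 3.35%.

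Several of the called genes are neighbours on the mm9 map. On chromosome 8 the Foxc2 probe lies 32 kb from the first Foxf1a probe and 11.7 kb before the Foxl1 probe. In TIA1 KO MEF Foxf1a was called lower (-1.99), and Foxc2 (4.52) and Foxl1 (at least 7.25-fold) higher. In TIAR KO MEF Foxf1a differed by 0.43, Foxc2 by 2.21 and Foxl1 by at least 1.5-fold, of which only the difference of Foxc2 was called. On chromosome 13 Foxf2 lies between Foxq1, 70.9 kb away, and Foxc1, 179 kb away. Foxf2 was called in both knockouts, whereas Foxq1, below background in WT MEF, was higher by at least 2.44-fold and 1.7-fold and Foxc1 differed by -0.29 and -0.87, none of them called.

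**Figure D5:**
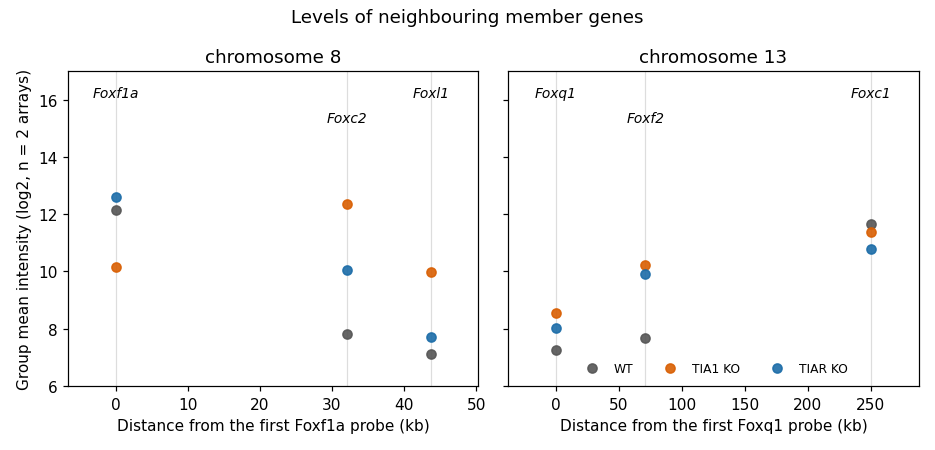
Mean log2 normalized intensity of 2 arrays in each line (vertical axis) against the distance in kb from the first probe of the first gene (horizontal axis) for 2 groups of neighbouring member genes. On chromosome 8 the TIA1 KO points are lowest at Foxf1a (10.16) and highest at Foxc2 (12.34) and Foxl1 (9.98), and on chromosome 13 the WT point lies below both knockouts at Foxf2 (7.67).

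Widely studied members that were not called are given with their values. Some were called under other settings, as with a common array median in TIA1 KO MEF, where Foxm1 was at -2.44, Foxc1 at -1.77, Foxd1 at -2.38, Sox9 at -1.55 and Six2 at 1.62, and Gapdh at -1.42. Foxm1, which drives genes of mitosis, read 13.93 and 13.94 in WT cells, 13.14 and 13.01 in TIA1 KO cells, and 13.32 and 13.44 in TIAR KO cells. The differences of -0.86 and -0.55 had adjusted p of 0.0732 and 0.0929, and neither reached a fold of 2. A dimmer Foxm1 probe differed by -1.24 and -0.67 and was not called either. Foxo1 read 11.29 and 11.31, then 11.62 and 11.71, then 12.14 and 12.09. Its difference of 0.82 in TIAR KO MEF had an adjusted p of 0.0277 and a fold under 2, and a second Foxo1 probe differed by 0.90. Foxp1 read 13.16 and 13.12, then 14.27 and 13.98, then 13.02 and 13.07. Its 2 bright probes differed by 0.99 and 1.02 in TIA1 KO MEF, with adjusted p of 0.0748 and 0.0514, and the difference of the brightest was -0.59 with a common array median.

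Sox9, the leading factor of cartilage, read 9.05 and 8.98 in WT cells, 7.58 and 8.45 in TIA1 KO cells, and 9.26 and 9.17 in TIAR KO cells. Its differences of -1.0 and 0.20 were not called, and only 1 TIA1 KO array was above background for it. Foxc1 differed by -0.29 and -0.87, Foxd1, a factor of kidney and lung stroma, by -0.95 and -0.35, and Foxo3 by -0.39 and -0.65, none of them called. The brightest Six2 probe read 7.13 and 7.41, then 9.88 and 8.32, then 6.78 and 6.59, with a difference of 1.83 in TIA1 KO MEF (SE 0.564, adjusted p = 0.143), while the other 2 Six2 probes were above background on no array. The brightest Lhx6 probe differed by 1.06 in TIA1 KO MEF (adjusted p = 0.083), where its other 2 probes were below background, and Pax3 by 0.84 (adjusted p = 0.105).

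Genes that these factors act with or on were read from lists of known partners and targets. For these lists and the markers below, the shares of all probes called are the background. They were 2.18% higher and 1.36% lower in TIA1 KO MEF, and 3.39% higher and 2.37% lower in TIAR KO MEF. Of 16 partners of Six2 family, Lhx and Pax proteins, 2 were called lower in TIA1 KO MEF, and 1 higher and 1 lower in TIAR KO MEF, with medians of 0.0445 and -0.0666. Eya2, a co-activator and phosphatase that binds proteins of the Six2 family, read 10.01 and 9.84 in WT cells, 6.55 and 6.80 in TIA1 KO cells, and 7.51 and 7.67 in TIAR KO cells. Without TIA1 it was lower by at least 5.69-fold (adjusted p = 0.0077), and it fell by 2.34 in TIAR KO MEF (adjusted p = 0.00136). Its relative Eya1 read 15.54 and 15.81, then 14.28 and 14.34, then 15.48 and 15.72, and fell by 1.37 in TIA1 KO MEF (adjusted p = 0.0405). This call did not pass in 8 of 16 alternatives, among them the authors' log2 table (adjusted p = 0.0607) and without TIA1 KO array 1 (0.0508). Lmo4, a LIM-only protein, rose by 1.17 in TIAR KO MEF (adjusted p = 0.023), which did not pass without WT array 1 or 2 or TIAR KO array 2, with adjusted p of 0.0776 to 0.0843. Eya2 was thus called lower in both comparisons, which share the WT arrays.

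Of 15 mitotic targets of Foxm1, 14 were above background on both WT arrays and none was called in TIA1 KO MEF, where 0 were higher and 0 lower. In TIAR KO MEF 2 were called lower, Kif20a by -1.18 (adjusted p = 0.0433) and Birc5 by -1.14 (adjusted p = 0.0492). The Kif20a call was lost in 7 of 16 alternatives and the Birc5 call in 11 of 16. For Birc5 these included the authors' log2 table and the replicate number as a block. Neither call passed without WT array 1 or 2, nor Kif20a without TIAR KO array 1 or Birc5 without TIAR KO array 2, with adjusted p of 0.0951 to 0.152. The medians of the list were -0.637 and -0.711, against -0.0922 and -0.0235 over all probes. The latter were -0.0668 and -0.014 with 1 probe per gene, and -0.263 and -0.046 with the filter on dim probes. Birc5 encodes survivin and Kif20a a kinesin of cytokinesis. Of 18 FoxO targets, 1 was called higher in TIA1 KO MEF, Irs2 (1.32, adjusted p = 0.0327), whose difference was -0.27 with a common array median. The Irs2 call also did not pass in the authors' log2 table (adjusted p = 0.0517) or with the replicate number as a block. In TIAR KO MEF 2 were called higher, Pik3ip1 (3.19, not passing without TIAR KO array 2 at an adjusted p of 0.0514) and Ccng2 (1.53), and 3 lower, Cdkn1a (-2.13), Klf2 (-1.61) and Bnip3 (-1.25). Cdkn1a and Ccng2 both slow the cell cycle and were called in opposite directions, and the list medians were -0.183 and -0.0729.

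Of 13 cartilage targets of Sox9, 2 were called higher in each knockout and none lower, with medians of -0.169 and 0.194. Col2a1, the collagen of cartilage, read 7.09 and 6.93 in WT cells, 11.91 and 12.04 in TIA1 KO cells, and 7.93 and 8.06 in TIAR KO cells, and was at least 30.2-fold higher in TIA1 KO MEF (adjusted p = 0.00369). The Sox9 probe itself differed by -1.0 in TIA1 KO MEF, not called, with only 1 TIA1 KO array above background. The part of Sox9 in the Col2a1 values was not tested. Ctgf, a secreted matrix protein, rose by 3.22 without TIA1 and by 1.56 without TIAR, and Col11a1 was at least 2.34-fold higher in TIAR KO MEF. The TIAR KO calls of both did not pass without TIAR KO array 1 or 2, with adjusted p of 0.0516 to 0.102, nor that of Col11a1 without WT array 2 (0.0754).

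Markers of fibroblasts moved with these results. Of 12 fibroblast markers, 6 were called higher in TIA1 KO MEF and none lower, and 8 were called higher and 1 lower in TIAR KO MEF, with medians of 2.23 and 2.24. The log2 of their summed intensity was 19.07 and 19.16 in WT cells, 20.35 and 20.32 in TIA1 KO cells, and 20.37 and 20.39 in TIAR KO cells. Pdgfra, a receptor by which fibroblasts are often recognized, was below background in WT MEF at 6.37 and 6.40, and read 10.05 and 10.22 without TIA1 and 11.68 and 11.51 without TIAR. Thy1, another such marker, read 6.63 and 6.98 in WT cells, 7.11 and 7.48 in TIA1 KO cells, and 14.84 and 14.74 in TIAR KO cells. Pdgfra was thus lower in WT MEF than in both knockouts, and Thy1 was lower in WT and TIA1 KO MEF than in TIAR KO MEF. Vim read 17.24 and 17.49 in WT cells and was called in neither knockout. The part of these differences between the lines in the values of the Fox, Sox, Pax, Six2 and Lhx families was not tested.

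Markers of other cell types were read in the same way. Of 8 endothelial markers none was called in TIA1 KO MEF and Egfl7 was lower in TIAR KO MEF, while Cdh5, Tie1, Emcn and Esam were above background on no array. Of 8 epithelial markers Krt8 was called higher in both knockouts and Cdh1 and Krt18 in TIAR KO MEF as well, and the log2 of the sum went from 10.61 and 10.57 in WT MEF to 11.49 and 11.46 in TIAR KO MEF. Of 8 neural and Schwann cell markers, none was called in TIA1 KO MEF and Nes fell by 4.65 in TIAR KO MEF, while Dcx, S100b and Gfap were above background on no array. Of 6 skeletal muscle markers Acta1 was called higher in both knockouts and Des in TIAR KO MEF, while Myod1, Myf5, Myog and Ckm were above background on no array. Of 7 macrophage markers Itgam was called higher in TIA1 KO MEF and Cd14 lower in TIAR KO MEF, while Ptprc, Emr1 and Lyz2 were above background on no array.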

How the data were processed

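The authors deposited scanner intensities of 6 arrays, extracted with Agilent Feature Extraction 10.7.3.1, and a table of log2 values that they made by normexp background correction, loess and quantile normalization. Here the mean and local background intensities were corrected by normexp with an offset of 50, taken to log2, set by loess against their mean over the 6 arrays and then quantile normalized. Control and outlier spots were then left out and the spots of a probe averaged. Each comparison was fitted with limma 3.58.1 in R 4.3.3 on its own 4 arrays, without covariates, with Benjamini-Hochberg adjustment over 55681 probes. The authors' log2 table was used as an alternative, and correlated with the values used here at 0.997 to 0.999 for the same array. Arrays have no read depth, and their number limits the precision.

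Probe positions are those of the scanner files on mm9, and 113 of the member probes carry an accession held by the RefSeq table, which covers all 86 genes. The members and lists were chosen with earlier results of these data known. The genes named are members called by their brightest probe, the brightest of each family, a list of widely studied members, the 5 largest called differences between the knockouts, the targeted genes with Gapdh, and up to 2 called genes of each partner or target list in each comparison. Exceptions, named after their values were seen, are second probes, members above background on all arrays or none, neighbours, members called by a probe other than the brightest, and further called genes of short lists and markers. Some genes, counted among the members and lists, are not reported here. The replicate numbers share a label only. Alternatives were the offset, processed intensities, normalizations, outlier spots, a filter on dim probes, 1 probe per gene, the authors' table, the variance model, a joint fit, a replicate block, a treat test and each array left out. The limma step was tested on simulated data.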

Additional observations from a re-analysis of the deposited data

How the results depend on the processing

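The counts of called member probes in TIA1 KO MEF (13) and between the knockouts (13) changed with the processing, and that in TIAR KO MEF (15) stayed within 1.5 times. In TIA1 KO MEF it was 0 with processed intensities scaled to the 75th percentile (76 at an unadjusted p under 0.05), 32 with a common array median, 5 with a treat test of a fold above 2, and 0 to 32 with 1 array left out, while the share of all probes called was 3.54% as reported and 0%, 28.4%, 0.79% and 0% to 19.3% under these settings. Between the knockouts it was 8, 28 and 3 under the same 3 settings, 0 with the replicate number as a block (39 at an unadjusted p under 0.05), and 0 to 30 with 1 array left out, against shares of all probes of 2.71%, 14.9%, 0.735%, 0% and 0% to 18.1% (3.35% as reported). The deviations of arrays of the same number correlated at 0.078, 0.0302 and -0.0729. The median of all probes in TIA1 KO MEF was -0.0922, but -0.67 with a common array median and 1.98 with processed intensities. Leaving out an array leaves 1 in its group, which is assumed to vary like the other group, and the causes of these changes were not tested.

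Of the values of named called genes under the alternatives, 474 kept their sign and side of the threshold, 165 lost the call and 1 changed sign, that of Irs2 in TIA1 KO MEF (-0.27 with a common array median). Of the named genes not called, 26 values changed sign and 16 became called. With a common array median in TIA1 KO MEF, where 28.4% of all probes were called, these 16 included Foxc1, Foxd1, Foxm1, Six2, Sox9, Tia1 (-2.14) and Gapdh, and in TIAR KO MEF Foxc1 (-1.25). With all groups fitted together Lhx6 (1.06) was called in TIA1 KO MEF. Without TIA1 KO array 2 Foxo3, Foxp1, Six2 and Sox9 passed against WT. In the TIAR KO line Foxc1 passed without WT array 1 and Tia1 without WT array 2. The last of the 16, Tial1 without TIAR KO array 2, leaves 1 value on each side and is no test. The signs that changed with a common array median in TIA1 KO MEF were those of Foxo1 (-1.15), Foxp1 (-0.59), Sox11 (-0.499), Foxl2 (-0.99), Lhx6 (-0.28), Six4 (-0.82), Sox5 (-1.33) and Tial1 (-0.96), and in TIAR KO MEF Foxf1a (-0.00674), Lhx6 (-0.25), Six4 (-0.079) and Gapdh (-0.15). With processed intensities they were those of Foxo3 (0.28), Sox11 (-0.23) and Sox5 (-0.034) in TIA1 KO MEF, and Tia1 (0.28) and Gapdh (-0.10) in TIAR KO MEF. Sox11 in TIA1 KO MEF was -0.36 without loess, -0.38 in the authors' table and -0.14 without TIA1 KO array 2, and Tia1 in TIAR KO MEF was 0.12 in the authors' table and 1.03 without WT array 1. Without WT array 2, Gapdh in TIA1 KO MEF was 0.012 and Lhx6 in TIAR KO MEF -0.15, and without TIA1 KO array 1, Gapdh was 0.049 and Foxo3 0.25 in TIA1 KO MEF. With 1 array left out, these values in TIA1 KO MEF ranged from -1.02 to 0.25 for Foxo3, from -0.14 to 0.31 for Sox11 and from -0.13 to 0.049 for Gapdh, and in TIAR KO MEF from -1.15 to 1.03 for Tia1.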

Other observations

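Some member probes were above background on exactly 1 of the 6 arrays. How many of all probes did so was not counted. Over all probes the 2 TIA1 KO arrays correlated at 0.972, against 0.989 for the WT and 0.988 for the TIAR KO arrays. Foxi2 read 11.14 on WT array 1 and 6.67 on WT array 2, and between 6.81 and 7.39 on the other 4. Sox2, a factor of pluripotent and neural cells, read 8.15 and 9.21 in TIA1 KO MEF, against 6.38 and 6.67 in WT MEF, at least 3.37-fold higher with an adjusted p of 0.0788 by limma. Foxn1 read 9.12 and 7.59 in TIA1 KO MEF, Foxo4 7.04 and 8.93 by 1 of its probes, Pax9 7.31 and 8.65, Sox17 8.77 and 7.29, and Sox3 8.48 and 7.23, with all WT and TIAR KO values of these probes at 7.14 or below. None of these members was called.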
